A study of Rattus norvegicus with 56 samples.

Results

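Transcripts of the cytosolic ribosomal proteins were followed in rat liver across sex, time of day and diet. Members were the genes of the read count table whose symbol begins with Rps or Rpl followed by a number, with an optional letter a, x, y or l and a further number, together with Rpsa, Rplp0, Rplp1 and Rplp2. This choice by name gave 82 of 17337 genes, of which 33 belong to the small (40S) subunit and 49 to the large (60S) subunit. The rule used symbols only, but it was set with earlier results of these data known. Mitochondrial ribosomal proteins fall outside it, as do Fau, Gnb2l1 and Rpl36al, which encode cytosolic ribosomal proteins under other forms of name. Rpl10l was not analysed here.

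Livers came from adult Sprague-Dawley offspring aged 180 days, at 4 h (ZT4, light phase) or 16 h (ZT16, dark phase) after lights-on in a cycle with 12 h of light. Controls (CON, 12 libraries) and their dams ate chow. The HFhf animals (14 libraries) had a Western diet with 25% fructose in the water, which their dams had received since gestation day 11. Growth-restricted animals (IUGR) were born to dams whose calories were cut by 50% from gestation day 10 to birth, after which dams and offspring received chow (IUGR-RC, 15 libraries) or the HFhf diet (IUGR-HFhf, 15 libraries). Each combination of sex, time and diet held 3 or 4 libraries, in 16 groups. The labels name neither litters nor separate animals, so p-values measure the spread between these samples, which may be technical. Each group is also limited as a model by the joint exposure of dam and offspring. IUGR-RC libraries carry titles of another form than the other 41, and that batch cannot be told apart from the diet.

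A ribosome joins a small subunit, which holds and decodes the messenger RNA, to a large subunit, which forms peptide bonds. Their proteins are needed in near equal amounts, and most of their mRNAs begin with a run of C and T bases (a 5′ terminal oligopyrimidine, or TOP, tract) through which mTOR signalling controls their translation. In liver, which exports most plasma proteins, feeding and the daily cycle are known to act on ribosome production.

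Pyrimidine runs over the annotated start were counted in member genes and in all genes. Among the promoters in RefSeq's GRCr8 annotation, 66 of 82 members had an entry, 67 entries in all. A run of at least 5 C or T bases covered the annotated start in 40 of 67 entries (59.7%), against 4003 of 33469 promoters of all genes (12%). A C at the start, with at least 5 C or T bases from the start on, was present in 35.8% of member entries and 2.63% of all promoters. The run could begin before that C. The windows printed here hold 15 bases before the start and 15 from the start on, with the run over the start in capitals and read on the gene's own strand. They were chosen to show members on which the results turn and paralog pairs that behaved unalike. The run is a description of these letters, not a tested regulatory site.
Rplp0, chr12:46718376-46718405, minus strand: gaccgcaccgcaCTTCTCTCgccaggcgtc
Rps10, chr20:5700730-5700759, minus strand: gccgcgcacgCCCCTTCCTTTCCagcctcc
Rps26, chr7:1643390-1643419, minus strand: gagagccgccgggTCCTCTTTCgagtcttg
Rps15, chr7:10068101-10068130, minus strand: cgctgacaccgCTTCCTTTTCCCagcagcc
Rpl34, chr2:221962269-221962298, minus strand: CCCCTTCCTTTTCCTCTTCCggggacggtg
Rpl12, chr3:36661925-36661954, plus strand: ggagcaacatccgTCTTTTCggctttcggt
Rpl22, chr5:168117946-168117975, plus strand: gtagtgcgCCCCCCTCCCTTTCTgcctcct
Rpl22l1, chr2:113683181-113683210, plus strand: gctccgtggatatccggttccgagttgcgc
Rps27, chr2:177964592-177964621, minus strand: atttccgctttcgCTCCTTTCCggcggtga
Rps27l, chr8:76443643-76443672, plus strand: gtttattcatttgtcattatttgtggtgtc
Rpl26, chr10:54109677-54109706, plus strand: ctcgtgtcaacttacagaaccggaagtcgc
Rps4y2, chr4:183000898-183000927, plus strand: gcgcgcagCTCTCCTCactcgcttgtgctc
Both paralogs that are usually expressed beside a main form, Rpl22l1 and Rps27l, lacked a run over the annotated start, while Rpl22 and Rps27 had one. Rpl26 lacked one too.

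Total counts ran from 5.55 M to 19.1 M per library (median 8.24 M in the 41 libraries of CON, HFhf and IUGR-HFhf, 13.4 M in IUGR-RC). Member reads made up 0.22% to 0.505% of a library. Alb alone, the defining hepatocyte transcript, took 10.3% to 28.7%. The Y-linked Eif2s3y had 179 to 1946 reads in each of 28 male libraries and no more than 1 in any of 28 female ones. The clock gene Per2 separated the labelled times in the 41 libraries, at 7.55 to 47.2 CPM (counts scaled to a common library size by TMM factors) at ZT4 and 79.5 to 173 CPM at ZT16. In IUGR-RC, female ZT4 replicate 3 went against its label, with Per2 at 76.2 CPM where the other 6 ZT4 libraries had 4.9 to 22.6 CPM. Skeletal muscle markers summed to 3870 CPM in female ZT4 IUGR-RC replicate 2 and 448 CPM in male ZT16 HFhf replicate 3, against a median of 1.04 CPM over all libraries. Pancreas markers had a median of 7.47 CPM over all libraries and reached 1440 CPM in female ZT4 IUGR-HFhf replicate 2. These 4 libraries are called doubted here, and each count of members was repeated without them.

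Read numbers differed widely between members, and low ones limit what can be said. Rps19 had 0 reads in all 56 libraries. Taken alone, 0 reads in 1 library allows an expected count of up to 3, and the 56 libraries together allow less in each. Rps6, the best known substrate of the mTOR pathway's S6 kinases, had at most 8 reads in a library, and Rps9 and the stalk protein gene Rplp2 at most 2 and 1. By their median over libraries, 21 members had under 10 reads (5 of these had 0), 20 had 10 to under 100, 34 had 100 to under 1000, and 7 had 1000 or more (among them Rpl3, Rpl35, Rpl4, Rpl7, Rplp0 and Rpsa). How the counting treated reads that match several places, and whether it used strand, is not given in the sources used here. Ribosomal protein genes have many near-identical processed copies, so the level of each gene is uncertain, and levels were compared only within a gene.

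Tests used members that passed a filter on low counts, which were 65 of 82 in the fit of the 41 libraries (27 small and 38 large subunit, among 10825 genes), 66 in the fit of all 56 (among 11047) and 70 in that of IUGR-RC alone (among 10690). The 17 left out of the first were Rps6, Rps9, Rps13, Rps19, Rps20, Rps28, Rpl3l, Rpl35a, Rpl36, Rpl36a, Rpl37, Rpl37a, Rpl38, Rpl39, Rpl39l, Rplp1 and Rplp2. Rplp1, partner of Rplp2 in the stalk, had at most 23 reads in a library. Rps27a had 1 to 39 reads and Rps4x 2 to 21, so their values rest on few reads, whereas Rplp0 had 1218 to 6415.

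The share of reads that fell on members was read first, library by library. In CON it was 0.265% ± 0.0251 (SD, n = 3) in males at ZT4, 0.295% ± 0.00675 (SD, n = 3) at ZT16 in the same sex, and 0.295% ± 0.00873 (SD, n = 3) and 0.318% ± 0.0154 (SD, n = 3) in ZT4 and ZT16 females. HFhf males had 0.239% ± 0.0185 (SD, n = 3) at ZT4 and 0.306% ± 0.024 (SD, n = 4) at ZT16. HFhf females had 0.291% ± 0.0298 (SD, n = 3) and 0.303% ± 0.0168 (SD, n = 4). Males of HFhf at ZT4 were the lowest group, and within each sex and time the libraries of CON and HFhf overlapped.

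IUGR-HFhf males had 0.251% ± 0.00805 (SD, n = 3) at ZT4 and 0.315% ± 0.0123 (SD, n = 4) at ZT16, and the females 0.31% ± 0.0426 (SD, n = 4) and 0.315% ± 0.0317 (SD, n = 4). IUGR-RC stood apart at 0.443% ± 0.0173 (SD, n = 4), 0.449% ± 0.041 (SD, n = 4), 0.417% ± 0.00441 (SD, n = 3) and 0.4% ± 0.0111 (SD, n = 4) in the same order. Its lowest library, at 0.384%, was above the highest of the other 41, at 0.358%. Because the tissue is bulk liver, fewer cells of a type and less RNA per cell cannot be told apart in any of these values.

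**Figure D1:**
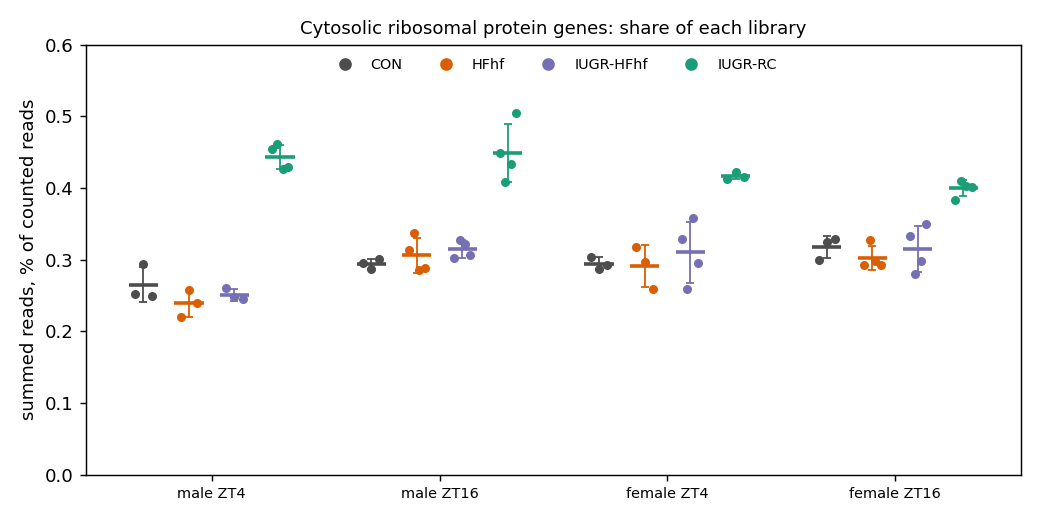
Share of counted reads (%) on the 82 cytosolic ribosomal protein genes in each of 56 libraries (points), by sex, time and diet; horizontal bars are group means and error bars SD over 3 or 4 libraries. The 15 IUGR-RC libraries lie between 0.384% and 0.505%, and the other 41 between 0.22% and 0.358%.

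Time of day gave more calls among the 41 libraries than diet did, and fewer than sex. At ZT16, in the dark phase when rats feed, 29 of 65 tested members were higher than at ZT4 and 0 were lower (edgeR, Benjamini-Hochberg adjusted p under 0.05, mean of the 6 groups of sex and diet). At an unadjusted p under 0.05, 31 were higher and 1 was lower, and DESeq2 called 30 higher and 0 lower. Of all 10825 tested genes 21.7% were higher and 21.2% lower, to be read beside the members' count. The members' median log2 fold change was 0.18 and the median of all genes -0.001. Those called higher were 15 of 27 small subunit and 14 of 38 large subunit members. Markers of other liver cells moved with time too. Of 5 tested stellate cell markers 3 were lower at ZT16 (Col1a1, Col3a1 and Reln) and Lrat was higher, and their sum was 305 to 442 CPM at ZT4 and 261 to 463 CPM at ZT16. Of 4 endothelial markers 2 were lower (Vwf and Stab2), with sums of 214 to 303 CPM and 175 to 262 CPM. Fgb, 1 of 6 hepatocyte markers, and Cela1, 1 of 3 tested pancreas markers, were lower as well, and hepatocyte markers summed to 155000 to 344000 CPM and 152000 to 370000 CPM. The part of these markers in the time difference was not tested.

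Among small subunit members, Rps26, which lines the mRNA exit channel, rose by 0.66 (log2, SE 0.115, edgeR adjusted p = 1.74e-05). Rps15a rose by 0.66 (SE 0.125, edgeR adjusted p = 5.17e-05). Rps10, which sits near the mRNA entry channel and is ubiquitylated when ribosomes collide, rose by 0.50 (SE 0.0764, edgeR adjusted p = 2.1e-06). Rps3, another protein of the entry channel, rose by 0.34 (SE 0.0545, edgeR adjusted p = 4.29e-06).

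Among large subunit members, Rpl22l1 rose by 0.53 (SE 0.095, edgeR adjusted p = 2.19e-05) and its main form Rpl22 by 0.39 (SE 0.0741, edgeR adjusted p = 6.07e-05). Rpl23, at the face between subunits, rose by 0.42 (SE 0.0545, edgeR adjusted p = 8.79e-08). Rpl24, which bridges the subunits, rose by 0.39 (SE 0.0549, edgeR adjusted p = 5.64e-07). Rpl13 and Rpl7a each rose by 0.38, the call of Rpl7a being lost in an additive model or without male ZT16 CON replicate 3 (highest adjusted p 0.0776). Rpl4, whose loop lines the exit tunnel, rose by 0.21, and Rpsa, the laminin receptor of the small subunit, by 0.12 (edgeR adjusted p = 0.0353). Several widely used reference transcripts did not pass: Rplp0, the base of the stalk that recruits elongation factors, at -0.01 (95% CI -0.11 to 0.09), Rpl3, near the catalytic centre, at 0.06 (-0.02 to 0.15) and Rpl13a at -0.03 (-0.17 to 0.10).

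The rise at ZT16 was larger in males for many members. In males alone 36 members were higher at ZT16 and 2 lower, with a median of 0.34 (all genes 13.4% higher, 13.1% lower). In females alone 8 were higher and 2 lower, with a median of 0.03 (all genes 16.8% higher, 17% lower). Members in females were thus called less often than genes at large. The difference between the sexes was itself tested and passed for 22 of 65 members, against 5.31% of all genes, 18 with the larger value in males and 4 with the larger in females. These splits by sex were added after the values had been seen. Among the ribosomal proteins under other forms of name, Fau, Gnb2l1 and Rpl36al were higher at ZT16 in males, and Fau was lower in females.

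Rps10 lay at 5.95, 7.11 and 10.1 CPM (lowest, median and highest of 9 libraries) in males at ZT4 and 13.7, 17.2 and 21.3 CPM (11 libraries) in males at ZT16. Its female values were 9.72, 13.8 and 17.5 CPM at ZT4 (10 libraries) and 9.07, 11.6 and 16.6 CPM at ZT16 (11 libraries). Male libraries of the 2 times did not overlap, female ones did, and males were below most females at ZT4 and above most of them at ZT16. By diet, male means went from 7.17 ± 1.25 CPM (SD, n = 3) to 16.5 ± 4.05 CPM (SD, n = 3) in CON, from 7.1 ± 0.761 (SD, n = 3) to 17.9 ± 2.34 (SD, n = 4) in HFhf and from 8.98 ± 1.64 (SD, n = 3) to 17.8 ± 1.92 (SD, n = 4) in IUGR-HFhf. The sexes' changes differed by 1.35 (SE 0.153, edgeR adjusted p = 1.43e-06), from 1.17 in males and -0.18 in females. Rps26 gave 3.31, 4.65 and 7.13 CPM and then 7.71, 12.8 and 16.4 CPM in males, and 4.75, 6.71 and 10 CPM and then 4.07, 6.56 and 14.3 CPM in females. Its changes differed by 1.24 (SE 0.229, edgeR adjusted p = 0.0017).

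Every male ZT16 library exceeded every male ZT4 library for 7 members, among them Rps3, Rpl24, Rps10, Rps21, Rps26 and Rpl4, and for 0 members in females. Of all 10825 tested genes 0.988% were so separated in males and 1.47% in females. Rps3 in males went from 40.6, 54.6 and 69.7 CPM to 70.5, 80.9 and 104 CPM. Females already had 61.2, 81.8 and 88.8 CPM at ZT4 and 71.1, 85.9 and 106 CPM at ZT16. Rpl4 in males went from 162, 175 and 206 CPM to 208, 212 and 272 CPM, and females had 235, 248 and 271 CPM and then 248, 266 and 303 CPM. For both genes the male ZT16 medians were nearer to the female medians than the male ZT4 medians were. Rps10 and Rps26 in males at ZT16 instead had medians above those of females.

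**Figure D2:**
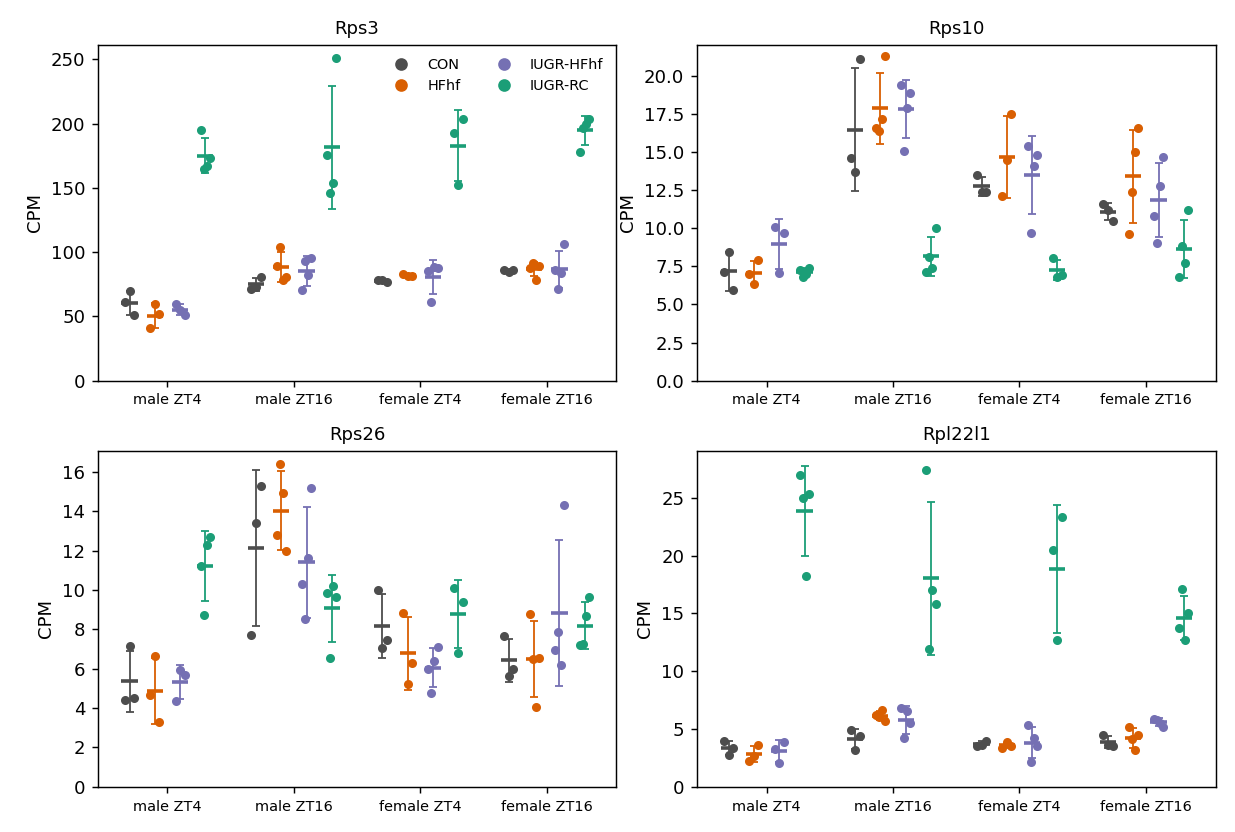
CPM of Rps3, Rps10, Rps26 and Rpl22l1 in each library (points), by sex, time and diet, with group means (bars) and SD (error bars). In males of CON, HFhf and IUGR-HFhf the ZT16 points of Rps3, Rps10 and Rps26 lie above the ZT4 points, and the female points overlap between times.

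Rpl26, which lies near the tunnel exit and also binds p53 mRNA, was low throughout, at 0.334, 0.877 and 1.45 CPM in males at ZT4 and 0.743, 1.73 and 3 CPM at ZT16. Its time changes differed between sexes by 1.30 (SE 0.388, edgeR adjusted p = 0.0423), a call lost without scaling factors or without the filter on low counts (highest adjusted p 0.0628). Rpl10a, a large subunit protein, differed by 1.14 (SE 0.34, edgeR adjusted p = 0.044). Rps2 and Rpl13 differed by 0.74 and 0.92.

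Members whose difference went the other way included Rps29, Rps7 and Rpl5. Rps29, a zinc-binding small subunit protein, had 26.9, 42.1 and 59.3 CPM in males at ZT4 and 24.8, 30.9 and 48.2 CPM at ZT16, and in females 33.2, 41.2 and 52.7 CPM and then 36, 49.1 and 67.3 CPM. It fell by 0.40 in males and rose by 0.27 in females, a difference of -0.67 (SE 0.157, edgeR adjusted p = 0.0108). The ranges overlapped in both sexes. Rps7, a small subunit protein, differed by -0.49 (SE 0.138, edgeR adjusted p = 0.0323), a call lost with all 56 libraries in 1 fit (adjusted p = 0.081). Rpl5, which with Rpl11 carries 5S ribosomal RNA and binds Mdm2, differed by -0.36.

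In females, members higher at ZT16 included Rps15a (0.59), Rps27 (0.36), Rpl27a (0.34), Rpl23 (0.33), Rps7 (0.29), Rps29 (0.27) and Rpl5 (0.24). Rpl23a fell by 0.24 and Rpl12, a protein of the large subunit, fell by 2.12. The call of Rpl23a was lost without scaling factors and with all 56 libraries in 1 fit (highest adjusted p 0.103). Without the 4 doubted libraries the female count went from 10 to 6. Rps27 (adjusted p = 0.0586) and Rpl27a (highest adjusted p 0.107 over its alternatives) were among the calls lost.

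**Figure D3:**
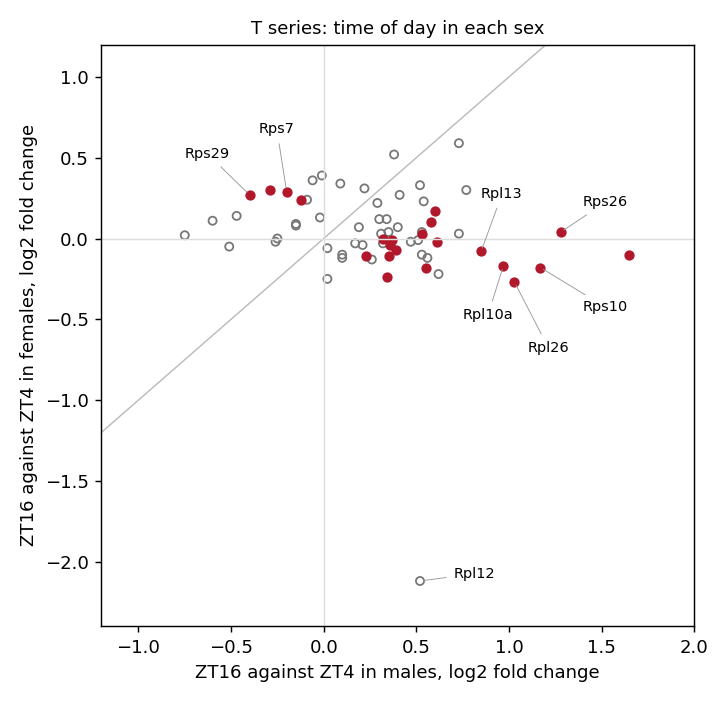
Log2 fold change of ZT16 against ZT4 in males (x axis) and females (y axis) for the 65 tested members in the 41 libraries of the T series (CON, HFhf and IUGR-HFhf); filled points are the 22 members whose changes differed between sexes, and the grey diagonal marks equal change. Rps10, Rps26, Rpl26 and Rpl10a lie far to the right near 0 on the y axis.

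Within single diets, members higher at ZT16 were called in all 3, but in CON less often than genes at large. In CON 2 members were higher at ZT16 (Rps10 by 0.50, edgeR adjusted p = 0.00963, and Rpl24 by 0.30) and Rpl9, a large subunit protein, fell by 0.78 (all genes 7.74% higher, 8.32% lower). In HFhf 13 were higher and 0 lower (7.11% and 6.68% of all genes), among them Rps15a (0.96) and Rps26 (0.74). In IUGR-HFhf 19 were higher and 0 lower (15.2% and 14.9%), among them Rpl8 (0.91) and Rps26 (0.80). The rise of Rpl24 in CON was lost with all 56 libraries in 1 fit (highest adjusted p 0.0721). The fall of Rpl9 in CON was lost without scaling factors, with DESeq2 or without the filter on low counts (highest adjusted p 0.0723). The rise of Rpl8 was lost without the doubted libraries (adjusted p = 0.0585). Whether the time change itself differed by diet was tested for members and passed for none: HFhf against CON at ZT16 minus at ZT4 gave 0 of 65 by edgeR and DESeq2, 8 higher and 0 lower unadjusted (1.3% of all genes called), and IUGR-HFhf against CON gave 0, with 7 higher unadjusted (2% of all genes called).

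In IUGR-RC, with edgeR, 0 of 70 members were higher at ZT16 and 1 was lower (all genes 4.38% higher, 3.37% lower), with a median of -0.17. At an unadjusted p under 0.05, 3 were higher and 15 lower, and DESeq2 called 1 higher and 4 lower. The member that fell was Rps24, a small subunit protein, which had 87.3, 119 and 159 CPM at ZT4 (7 libraries) and 63.8, 79.4 and 150 CPM at ZT16 (8 libraries), a change of -0.48 (SE 0.136, edgeR adjusted p = 0.0426). That call was lost without any of 12 of the 15 libraries, and without the doubted libraries, female ZT4 replicate 3 with its clock gene levels of the other time among them. It was also lost without the filter on low counts and in an additive model.

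The time change in the other 3 diets minus that in IUGR-RC was above 0 for all 24 members called, against 20.4% of all genes called in either direction. The largest values included Rps4x, with a median below 1 CPM, and among better covered members Rpl22l1 (0.91, SE 0.176, edgeR adjusted p = 0.000508), Rps26 (0.86) and Rps24 (0.83). Rpl22l1 in IUGR-RC lay at 12.7, 23.3 and 27 CPM at ZT4 and 11.9, 15.4 and 27.4 CPM at ZT16, which overlapped. Batch and diet cannot be told apart in this difference.

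The genes around the ribosome were described from lists of known roles. At ZT16 in the 41 libraries 8 of 20 translation factors and other mRNAs with TOP tracts were higher (among them Eif4a1, the initiation helicase, and Eif3e) and 4 were lower (Eef1a1, Eef1g, Pabpc1 and Eif4b). Of 37 tested genes of ribosome biogenesis 9 were higher and 6 lower, and of 17 genes of mTOR signalling to the ribosome 4 were higher (Rps6kb1, Rheb, Eif4e and Depdc5) and 4 lower (Tsc1, Tsc2, Eif4ebp1 and Sesn2). By sex, biogenesis genes gave 3 higher and 4 lower in males and 13 higher and 3 lower in females. Of all tested genes 21.7% were higher and 21.2% lower at ZT16, with 13.4% and 13.1% in males and 16.8% and 17% in females. The biogenesis and mTOR counts over both sexes lay near these shares. These counts describe the lists, which were not tested.

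Sex gave the most calls within the 41 libraries. Averaged over time and diet, 44 of 65 members were lower in males than in females and 1 was higher, with a median of -0.31 (all genes 19.3% higher, 19.5% lower). They included 16 of 27 small subunit and 28 of 38 large subunit members. No member separated the sexes fully, as the ranges of the 20 male and 21 female libraries overlapped for each of the 82. Of all tested genes 0.554% had every female library above every male one, and 0.628% the reverse.

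Rps7, a small subunit protein, had 15.9, 20.8 and 30.4 CPM in males and 24.1, 33.5 and 46.5 CPM in females, a difference of -0.57 (log2, SE 0.0689, edgeR adjusted p = 1.03e-08). Rpl11, the partner of Rpl5, had 45.4, 58.6 and 77.3 CPM in males and 65, 83.6 and 112 CPM in females (-0.49, SE 0.0562, edgeR adjusted p = 4.13e-09). Rps23, at the decoding centre, had 12.1, 18.5 and 21.7 CPM against 19.9, 25.5 and 30.2 CPM (-0.50, SE 0.0626, edgeR adjusted p = 2.33e-08). In these 3 genes the male median lay below the lowest female library, and the ranges overlapped. Rpl7 differed by -0.47 (edgeR adjusted p = 3.03e-09), Rps25, Rpl21 and Rps3a by -0.50, -0.50 and -0.49, and Rpl26 by -0.54. The call of Rpl26 was lost without scaling factors or in an additive model (highest adjusted p 0.0745), and without male ZT4 IUGR-HFhf replicate 3 (adjusted p = 0.0502).

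Among common reference transcripts, Rplp0, Rpsa and Rpl13a were lower in males. Rplp0 had 171, 216 and 251 CPM in males and 211, 264 and 317 CPM in females (-0.32, SE 0.0476, edgeR adjusted p = 6.27e-07). Rpsa had 61.8, 82.8 and 108 CPM against 87.1, 105 and 130 CPM (-0.37, SE 0.0471, edgeR adjusted p = 3.89e-08). Rpl13a differed by -0.38. Rpl3, at -0.08 (95% CI -0.17 to 0.00), Rpl22 at -0.07 and Rpl22l1 at -0.02 did not pass.

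Rps27l was the member higher in males. This paralog of Rps27, a known target of p53, had 31.2, 56 and 78.3 CPM in males and 21.3, 35.6 and 44.8 CPM in females, a difference of 0.69 (SE 0.0888, edgeR adjusted p = 8.18e-08). Rps27 itself had 6.46, 10.4 and 16.6 CPM in males and 8.45, 15.6 and 23.7 CPM in females (-0.58, SE 0.096, edgeR adjusted p = 5.31e-06). The pair thus differed between the sexes in opposite directions. Rps4y2, a copy of the X-linked Rps4x that RefSeq places on chromosome 4 of GRCr8, had 0.578, 2.6 and 4.84 CPM in males and 2.23, 5.33 and 8.62 CPM in females (-0.92, SE 0.151, edgeR adjusted p = 4.7e-06). Rps4x, with 2 to 21 reads in a library, did not pass (edgeR adjusted p = 0.995).

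**Figure D4:**
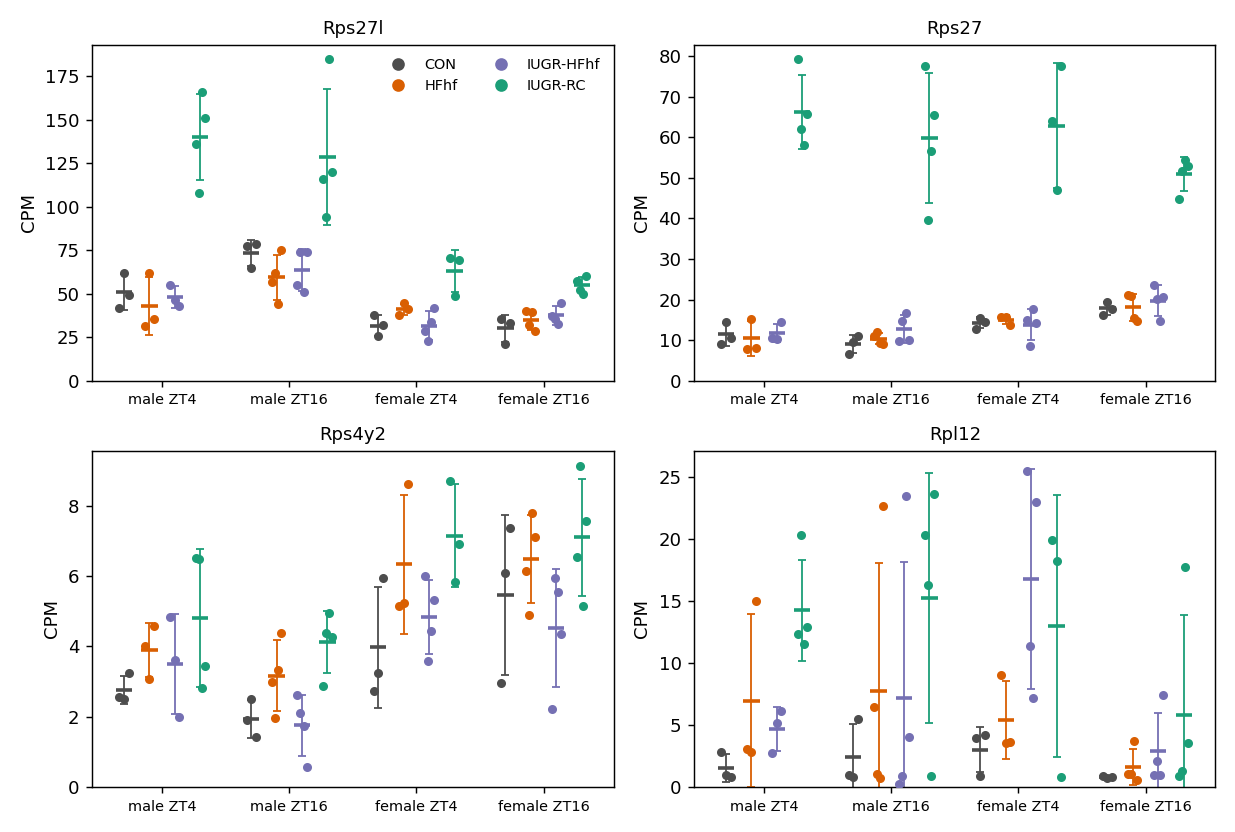
CPM of Rps27l, Rps27, Rps4y2 and Rpl12 in each library (points), by sex, time and diet, with group means (bars) and SD (error bars). Rps27l is higher in males and Rps27 and Rps4y2 higher in females of the 3 diets other than IUGR-RC, and Rpl12 ranges widely within many groups, with error bars that the axis ends at 0.

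The sexes were also compared at each time. At ZT4, 42 members were lower in males and 1 higher, with a median of -0.42 (all genes 15.2% higher, 15.3% lower). Rpl26 (-1.19) and Rps10 (-0.82) were among the largest. At ZT16, 23 were lower and 6 higher, with a median of -0.11 (15.9% and 15.6% of all genes). The higher ones included Rpl12 (1.80), Rps27l (0.94), Rps26 (0.80), Rps10 (0.53) and Rpl13 (0.31). The call of Rpl12 was lost without the filter on low counts and with all 56 libraries in 1 fit (highest adjusted p 0.0582). Its levels ranged widely, with 23.5 CPM in male ZT16 IUGR-HFhf replicate 3 against 0.263 to 4.05 CPM in the rest of that group. Rps10 and Rpl13 changed sides between the times.

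Several whole-library measures moved with sex. Among the 41 libraries, males had a median of 7.36 M counts (5.55 M to 11.4 M) and females 10.8 M (5.94 M to 18.7 M). All male title numbers lie below all female ones, so any order of handling that they record cannot be told apart from sex. Alb took 10.3% to 15.8% of reads in males and 14.5% to 26.4% in females of the 41 libraries, and scaling factors had a median of 1.09 in males and 1 in females. Hepatocyte markers summed to 152000 to 218000 CPM in males and 184000 to 370000 CPM in females, with Alb lower and Ttr higher in males. Of 5 stellate cell markers 3 were higher in males (Col1a1, Col3a1 and Lrat), with sums of 290 to 463 CPM in males and 261 to 439 CPM in females. Of 6 macrophage markers Clec4f and C1qa were lower and Marco higher in males, with sums of 201 to 351 CPM and 185 to 449 CPM. Of 4 endothelial markers Pecam1 and Vwf were higher and Stab2 lower, with sums of 175 to 277 CPM and 205 to 303 CPM. Of 3 tested pancreas markers Cpb1 and Cpa1 were lower and Cela1 higher, and the whole list summed to 1.16 to 5.55 CPM in males and 1.49 to 1440 CPM in females. Epcam, 1 of 3 tested bile duct markers, was higher in males. Without scaling factors 28 members were lower in males and 2 higher with a median of -0.19, while the median of all genes moved to 0.12. At ZT16 that setting gave 17 lower and 9 higher. The part of these measures in the sex difference was not tested.

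The same lists were counted by sex. Of 20 translation factors and other TOP mRNAs 13 were lower in males and 0 higher, including Eef2, Eef1a1, Tpt1 and Pabpc1. Fau and Gnb2l1, which encodes the scaffold Rack1, were lower too. Of 37 biogenesis genes 7 were lower and 4 higher, and of 17 mTOR genes 3 were lower and 1 higher. Of all tested genes 19.5% were lower in males and 19.3% higher.

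In IUGR-RC few members differed by sex. Of 70 members 2 were higher in males and 2 lower, with a median of 0.13 (all genes 9.29% higher, 11% lower). Rps27l again was higher in males (1.18, SE 0.142, edgeR adjusted p = 1.37e-05). It had 94.1, 128 and 185 CPM in 8 male and 48.8, 57.3 and 70.7 CPM in 7 female libraries. These ranges did not overlap, and the share of all genes so separated was not counted. Rps4y2 was lower (-0.70, SE 0.203, edgeR adjusted p = 0.0218), a call lost without scaling factors (adjusted p = 0.0606) or without either of 2 of the 15 libraries. Rplp0 was lower (-0.29, edgeR adjusted p = 0.0354) and Rpl19 higher (0.41, edgeR adjusted p = 0.0414), calls lost without the doubted libraries and without any of 10 and of 11 of the 15 libraries. Both were also lost without the filter on low counts, and that of Rplp0 without scaling factors. The sum of the pancreas markers separated these sexes, at 154 to 398 CPM in females and 3.28 to 11.9 CPM in males. This sum does not speak for every marker. Of the 3 tested, only Cpa1 was lower in males, and Cpb1 and Cela1 were higher. Over all libraries Cpa1 had 39413 reads, Cpb1 5019 and Cela1 1740. The part of these markers in the member calls was not tested. Without scaling factors the split was 4 higher and 0 lower.

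The sex difference in the other 3 diets minus that in IUGR-RC passed for 21 members, all below 0, against 7.4% of all genes called in either direction. Rps25, a small subunit protein used by some viral internal ribosome entry sites, led at -1.16 (SE 0.317, edgeR adjusted p = 0.023), before Rpl19 (-0.86, SE 0.126, edgeR adjusted p = 9.86e-05), Rps27 (-0.74) and Rpl27a (-0.74). Rpl19 had 38.6, 56.6 and 70.3 CPM in males and 63.3, 75.1 and 95.1 CPM in females of the 3 diets, and 109, 190 and 219 CPM against 107, 116 and 195 CPM in IUGR-RC. The count went from 21 to 9 without the doubted libraries, where Rps25 (adjusted p = 0.094) and Rpl27a (0.114) no longer passed.

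Diet within the 41 libraries gave few calls. With HFhf against CON, averaged over the 4 strata of sex and time, edgeR called 0 of 65 members (6 higher and 0 lower at an unadjusted p under 0.05, 1 higher by DESeq2) against 5.48% of all genes higher and 4.6% lower. The median was 0.03 and 43 members lay above 0. Rplp0 differed by 0.05 (95% CI -0.07 to 0.17) and Rpsa by 0.10 (-0.02 to 0.22). Rpl3 at 0.13 (edgeR adjusted p = 0.137) and Rps15 at 0.14 (edgeR adjusted p = 0.211) did not pass.

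With IUGR-HFhf against CON, 4 members were higher and 0 lower (7.15% and 6.05% of all genes), with a median of 0.09 and 58 of 65 above 0. Members were thus not called more often than genes at large. At an unadjusted p under 0.05, 13 were higher, and DESeq2 called 4. Rps15, needed for export of small subunits from the nucleus, had 31.9, 42.9 and 60.6 CPM in CON, 30.6, 49.9 and 62.6 CPM in HFhf and 38.3, 51.3 and 62.7 CPM in IUGR-HFhf. It rose by 0.26 (SE 0.0659, edgeR adjusted p = 0.00641). Rpl34, a large subunit protein, had 15.1, 19.9 and 27.8 CPM in CON and 15.7, 24.4 and 29.5 CPM in IUGR-HFhf, and rose by 0.23 (SE 0.0699, edgeR adjusted p = 0.0241). Ranges overlapped widely for both.

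Rpl3 had 154, 170 and 197 CPM in CON and 151, 203 and 237 CPM in IUGR-HFhf, and rose by 0.16 (SE 0.0519, edgeR adjusted p = 0.0397). Rpl12 rose by 1.82 (SE 0.592, edgeR adjusted p = 0.0383). Both calls were lost without any of 14 of the 41 libraries, and that of Rpl34 without female ZT16 CON replicate 1 (adjusted p = 0.0511). Those of Rps15, Rpl34 and Rpl3 were lost without scaling factors, where Rps15 had an adjusted p of 0.0581. The calls of Rpl3 and Rpl12 were also lost without the filter and with all 56 libraries in 1 fit, and that of Rpl3 in an additive model. IUGR-HFhf against HFhf gave 0 members by edgeR and 0 by DESeq2 (4 higher and 1 lower unadjusted), against 0.0462% of all genes higher and 0.0277% lower.

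Among single strata of the HFhf diets, members were called only for IUGR-HFhf against CON in males at ZT16. There 3 of 65 members were higher, Rps15 and Rpl34 among them (12 higher unadjusted, 3 by DESeq2). Of all 10825 tested genes 302 were higher and 244 lower. Counted in either direction (5.04% of all genes), members were not called more often than genes at large. Rps15 went from 39.7 ± 4.22 CPM (SD, n = 3) in CON to 55.8 ± 7.19 CPM (SD, n = 4) in IUGR-HFhf, with HFhf at 50.4 ± 5.19 (SD, n = 4), and rose by 0.49 (SE 0.131, edgeR adjusted p = 0.0228). Rpl34 went from 17.7 ± 0.51 (SD, n = 3) to 24.4 ± 0.687 (SD, n = 4) and rose by 0.46 (edgeR adjusted p = 0.0484). The 4 IUGR-HFhf libraries lay above the 3 CON libraries for both genes. Both were picked by their call in this stratum, and the share of all genes so separated was not counted. The call of Rpl34 was lost with RLE scaling, without scaling factors, without the filter and with all 56 libraries in 1 fit, and that of Rps15 without scaling factors.

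The other strata gave 0 members by edgeR and by DESeq2. For HFhf against CON the background was 1.5% for ZT4 males (7 members lower unadjusted), 1.85% for ZT16 males (7 higher), 1.92% for ZT4 females (4 higher) and 1.68% for ZT16 females (0). For IUGR-HFhf against CON it was 0.979% in males at ZT4 (3 lower unadjusted), 0.915% in females at ZT4 (9 higher, 1 lower) and 3.45% in females at ZT16 (4 higher). For IUGR-HFhf against HFhf it was 0%, 0.0185%, 0.0185% and 0.00924% in the order male ZT4, male ZT16, female ZT4, female ZT16, with 1, 3, 2 and 0 members higher and 0, 1, 1 and 0 lower unadjusted. The diet effect in males minus that in females gave 0 members as well, for HFhf (0.139% of all genes, 1 member lower unadjusted) and for IUGR-HFhf (0.388%, 0 unadjusted), with edgeR and with DESeq2.

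Median changes of members are given side by side for both HFhf diets. HFhf against CON gave -0.14, 0.20, 0.08 and 0.07 in the order male ZT4, male ZT16, female ZT4, female ZT16, and IUGR-HFhf against CON gave -0.04, 0.20, 0.11 and 0.09. Both comparisons use the same CON libraries. Among neighbours of the ribosome, 5 of 20 translation factors were higher in HFhf (Eef2, Eef1g, Eef1b2, Eif3f and Eif3k). In IUGR-HFhf 3 were higher and Eif4b was lower, while 0 of 37 biogenesis genes were called in either (edgeR). Of all tested genes 5.48% were higher and 4.6% lower in HFhf, and 7.15% and 6.05% in IUGR-HFhf.

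**Figure D5:**
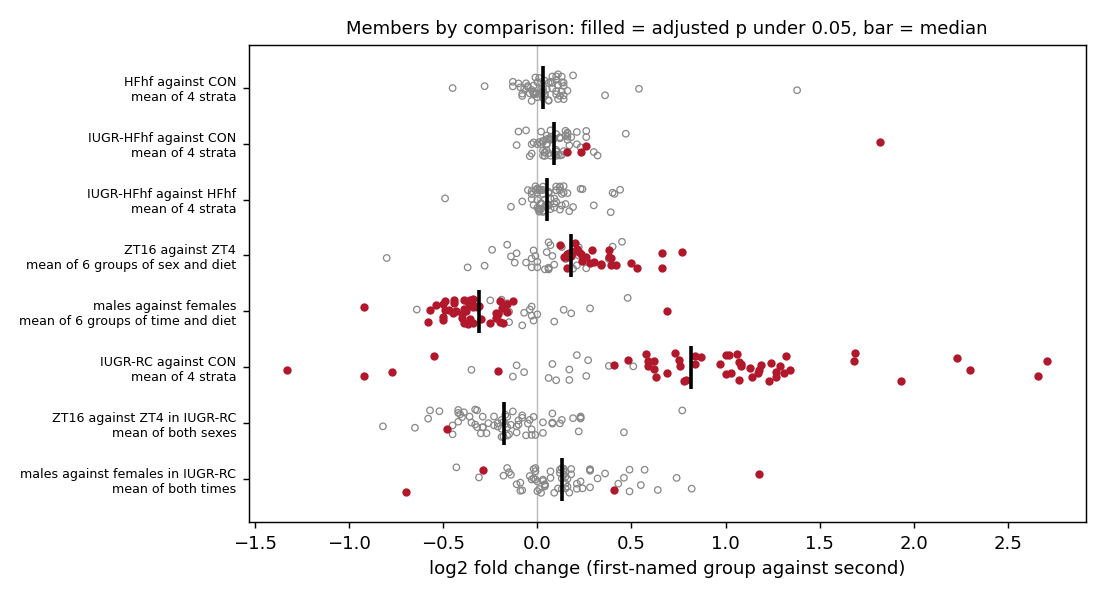
Log2 fold change of each tested member (points) in the comparisons averaged over groups, with members at an adjusted p under 0.05 filled and the median as a black bar. Medians are 0.18 for ZT16 (51 of 65 members above 0), -0.31 for males (59 of 65 below 0), 0.03 for HFhf (43 of 65 above 0), 0.09 for IUGR-HFhf (58 of 65 above 0) and 0.82 for IUGR-RC (57 of 66 above 0), each of the last 3 against CON.

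IUGR-RC against CON gave the most calls, and in it batch and diet cannot be told apart. Of 66 tested members 47 were higher and 5 lower (33% and 29.9% of all genes), with a median of 0.82 where the median of all genes was 0.03. DESeq2 gave the same counts. Small subunit members gave 17 higher and 3 lower, and large subunit members 30 higher and 2 lower. Every IUGR-RC library exceeded every CON library for 28 of 66 members, against 3.5% of 11047 tested genes, and the reverse held for 1 member, Rps21, against 4.35% of tested genes.

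Rpl26 had 0.517, 1.66 and 2.46 CPM in CON and 4.06, 10.8 and 13.6 CPM in IUGR-RC (2.71, SE 0.197, edgeR adjusted p = 2.4e-16). Rps27 had 6.46, 13.6 and 19.5 CPM and 39.7, 58 and 79.2 CPM (2.23, SE 0.119, edgeR adjusted p = 1.51e-20). Neither pair of ranges overlapped. Rps3 had 50.8, 77.5 and 85.9 CPM and 146, 178 and 251 CPM (1.31, SE 0.0751, edgeR adjusted p = 1.22e-19). Rpl10, a late joining large subunit protein, had 59.4, 78 and 95.8 CPM and 151, 192 and 254 CPM (1.32). Rpsa had 69.6, 91.4 and 118 CPM and 164, 185 and 222 CPM (1.06), and its lowest IUGR-RC library was again above the highest of CON.

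Smaller rises were found in Rpl3 (0.84), Rpl13a (0.76), Rps27a (0.79), which encodes a fusion with ubiquitin, and Rplp0, at 184, 230 and 275 CPM in CON and 275, 359 and 416 CPM in IUGR-RC (0.58, SE 0.0596, edgeR adjusted p = 8.9e-12). Rpl7a (1.68), Rps3a (1.69), Rpl6 (1.34) and Rps25 (1.93) rose more. The sizes of the rises thus ranged widely.

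Of the paralog pair Rpl22l1 and Rpl22, the first rose and the second did not pass. Rpl22l1 had 2.77, 3.62 and 4.88 CPM in CON and 11.9, 17.1 and 27.4 CPM in IUGR-RC (2.30, SE 0.121, edgeR adjusted p = 5.49e-21). Rpl22 had 29, 36.7 and 44.4 CPM and 31.4, 38.9 and 48.6 CPM (0.08, 95% CI -0.10 to 0.25). The windows printed above show a 15-base run over the start of Rpl22 and none over that of Rpl22l1. Rps27l rose by 1.03 beside the 2.23 of Rps27. In that pair the reverse held, as Rps27, with a 9-base run over its start, rose more than Rps27l, which has none. The part of the runs in these changes was not tested.

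Of the 5 members that were lower, Rpl32 had 2.07, 3.72 and 5.85 CPM in CON and 0.859, 1.3 and 2.3 CPM in IUGR-RC, and fell by 1.33 (SE 0.153, edgeR adjusted p = 2.57e-10). Rps21 had 14.2, 17.4 and 21.4 CPM and 7.03, 10.5 and 14.2 CPM, and fell by 0.77 (SE 0.0962, edgeR adjusted p = 1.79e-09). Before rounding, its lowest CON library was above the highest of IUGR-RC. Rps10 had 5.95, 12 and 21.1 CPM and 6.8, 7.4 and 11.2 CPM, and fell by 0.55. Rpl29 fell by 0.21 (edgeR adjusted p = 0.0342), a call lost without the doubted libraries or any of 5 of 27 libraries, and Rps18, with a median below 1 CPM, by 0.92.

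By stratum the members called higher and lower were 46 and 2 for ZT4 males (46.7% of all genes called), 44 and 4 for ZT16 males (37.8%), 42 and 3 for ZT4 females (38.1%) and 34 and 3 for ZT16 females (24.4%). Medians were 1.14, 1.0, 0.76 and 0.46 in that order. The nuclear RNA Rmrp, the RNA of RNase MRP, which cleaves ribosomal RNA precursors, lay at 2.29 to 10.5 CPM in IUGR-RC and 743 to 4070 CPM in the other 41 libraries. Macrophage markers summed to 395 to 851 CPM in IUGR-RC and 185 to 449 CPM in the others, with 5 of 6 markers higher than in CON, and red cell markers to 108 to 405 CPM against 44.9 to 210 CPM. The part of these in the member difference was not tested. Without scaling factors 44 members were higher and 11 lower with a median of 0.55, and the median of all genes moved to -0.23.

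Translation factors and biogenesis genes were mostly higher in IUGR-RC than in CON, while mTOR genes gave more lower than higher calls. Of 20 translation factors and other TOP mRNAs 18 were higher in IUGR-RC and 0 lower, Fau, Gnb2l1 and Rpl36al were higher, and of 37 biogenesis genes 27 were higher and 3 lower. Of 17 mTOR genes 3 were higher and 8 lower. Of all tested genes 33% were higher and 29.9% lower.

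Pyrimidine runs were set beside the calls as a description. Of members with a promoter entry, 12 of 24 called higher at ZT16 had a run over the start (50%), against 21 of 27 other tested members (77.8%). For members lower in males the counts were 19 of 33 (57.6%) against 14 of 18 (77.8%), and for members higher in IUGR-RC 20 of 37 (54.1%) against 14 of 15 (93.3%). The shares are a description of these entries, with no test.

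Rpl12, at the base of the stalk, ranged widely within groups. In the 41 libraries 17 had under 1.5 CPM, 11 had 1.5 to under 5 CPM and 13 had 5 CPM or more, and in IUGR-RC 4 libraries had under 1.5 CPM and 10 had 5 CPM or more. Its SD of log2 values within groups was 1.25, against a median of 0.25 over the tested members in the 41 libraries. Males gave 0.776, 2.85 and 15 CPM at ZT4 and 0.263, 1.05 and 23.5 CPM at ZT16, and females 0.88, 5.7 and 25.5 CPM and then 0.547, 0.957 and 7.45 CPM. Rpl17, at the tunnel exit, had an SD of 0.82 (20 libraries under 10 CPM, 21 at 10 CPM or more) and Rpl30 one of 0.77.

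Paralogs known from other tissues had few reads in most libraries. Rpl3l, the muscle form of Rpl3, had 212 reads (19 CPM) in female ZT4 IUGR-RC replicate 2, where muscle markers summed to 3870 CPM, and 1.19 CPM in male ZT16 HFhf replicate 3. Its median was 1 read in a library. Rpl39l, known from male germ cells, had at most 34 reads (2.38 CPM).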

How the data were processed

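Liver RNA of 56 rat samples was sequenced after ribosomal RNA removal with a stranded kit, per the labels' protocols, which elsewhere name polyA RNA. The authors deposited raw read counts per gene symbol; FastQC, STAR, featureCounts of Subread, DESeq2 and the build rn6 are named in the submitters' processing notes, without versions. Strand and multi-mapping settings are not given in the sources used here. Of the deposited symbols 24 had become dates and were left as they stood.

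Counts were tested with edgeR 4.0.16 (quasi-likelihood, robust, TMM scaling, filterByExpr) in R 4.3.3 on 1 mean per group, with Benjamini-Hochberg adjustment over all tested genes and calls at an adjusted p under 0.05. CON, HFhf and IUGR-HFhf (41 libraries, 29 residual degrees of freedom) were fitted apart from IUGR-RC (15 libraries, 11), except for IUGR-RC against CON and differences with IUGR-RC (56 libraries, 40). CPM use TMM-scaled totals. In all 38 comparisons were made, and the tests were checked on simulated data. Sequences and chromosome places are RefSeq's (GRCr8), not the build of the counts.

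Members and lists were chosen with earlier results of these data known. Named were, in each mean comparison, the called members of at least 1 CPM with the largest changes, up to 10 in each direction (3 in single strata and interactions), and a list of paralogs and reference genes. Other members in the text were named after their values were seen. Results for some genes are not reported here. Alternatives were RLE scaling, TMM from other genes, DESeq2 1.42.0, no filter, a mean of at least 1 CPM, an additive model, all 56 libraries in 1 fit, the 4 doubted libraries left out, each library left out, and, chosen after seeing the data, no scaling factors.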

Additional observations from a re-analysis of the deposited data

Results flagged for a closer look

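Among groups of 4 libraries, 15 of 183 tested sets of values held 1 library far from its group, where chance gives about 1 in 20. Members took 0.328% of counts in female ZT16 HFhf replicate 2, against 0.293% to 0.298% in the other 3. Rpl12 accounted for 4 cases, namely 20.3 CPM in male ZT4 IUGR-RC replicate 2 (others 11.5 to 12.9), 23.5 in male ZT16 IUGR-HFhf replicate 3 (0.263 to 4.05), 3.73 in female ZT16 HFhf replicate 3 (0.547 to 1.06) and 17.7 in female ZT16 IUGR-RC replicate 3 (0.881 to 3.5).

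The doubted library female ZT4 IUGR-HFhf replicate 2 was low in Rps3, at 61.2 CPM (others 85.5 to 88.8), and in Rpsa, at 91.4 CPM (114 to 119). The doubted library male ZT16 HFhf replicate 3 had 188 CPM of Rpl3 (212 to 216) and 1.19 CPM of Rpl3l (0 to 0.146). Male ZT16 IUGR-RC replicate 2 had 17.5 CPM of Rpl34 (27.6 to 28.8) and 6.56 CPM of Rps26 (9.65 to 10.2), and replicate 1 of that group had 150 CPM of Rps24 (81.1 to 91.7). Rpl3 was 190 CPM in male ZT16 IUGR-HFhf replicate 1 (207 to 210). Rps10 was 21.3 CPM in male ZT16 HFhf replicate 4 (16.4 to 17.2). In female ZT16 IUGR-HFhf, Rpl22 was 33.9 CPM in replicate 2 (43.1 to 44.1).

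Effects that differed between groups by a test of the difference (edgeR) were also marked. The change from ZT4 to ZT16 in males minus that in females passed for 22 members, among them Rps10 at 1.35, Rpl26 at 1.30, Rps26 at 1.24, Rps29 at -0.67, Rps7 at -0.49 and Rpl5 at -0.36 (log2). That change in CON, HFhf and IUGR-HFhf minus that in IUGR-RC passed for 24, with Rpl22l1 at 0.91, Rps26 at 0.86 and Rps24 at 0.83. The sex difference in the same 3 diets minus that in IUGR-RC passed for 21, with Rps25 at -1.16, Rpl19 at -0.86 and Rpl27a at -0.74. In both differences with IUGR-RC, batch and diet cannot be told apart, and doubted libraries of female ZT4 IUGR-RC enter both.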

How the results depend on the processing

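Of 110 named pairs of gene and comparison, 83 kept direction and call under every alternative run, 27 lost the call in at least 1, and 0 reversed. Causes of the shifts that follow were not tested. Without scaling factors the members called were 1 for IUGR-HFhf against CON (from 4), 1 over the single strata of the HFhf diets (from 3) and 3 for time in IUGR-RC (from 1). Without the filter they were 2 for IUGR-HFhf against CON, 0 for time in IUGR-RC and 2 for sex in IUGR-RC (from 4). With all 56 libraries in 1 fit they were 2, 11 and 8 for these comparisons. DESeq2 gave 1 for HFhf against CON (from 0) and 5 for time in IUGR-RC. Without the 4 doubted libraries the counts were 0 for time and 2 for sex in IUGR-RC, 6 for time in females (from 10) and 9 for the sex difference against IUGR-RC (from 21).

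Leaving out each library in turn gave 0 to 1 members for HFhf against CON, 1 to 5 for IUGR-HFhf against CON (1 without female ZT16 CON replicate 1), 0 for IUGR-HFhf against HFhf, 26 to 31 for time, 43 to 47 for sex and 51 to 56 for IUGR-RC against CON. For IUGR-RC it gave 0 to 12 for time (12 without male ZT16 replicate 1) and 1 to 9 for sex (9 without male ZT16 replicate 2), so both counts changed with single libraries.

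Without scaling factors the share of calls that were higher moved from 50% to 100% for sex in IUGR-RC, from 0% to 33.3% for time in IUGR-RC, from 66.7% to 100% for time in CON and from 80% to 91.7% for time in females. It moved from 20.7% to 34.6% for sex at ZT16 and from 90.4% to 80% for IUGR-RC against CON. The median of members in HFhf against CON moved from 0.03 to -0.07 and that of all genes to -0.09. The additive model gives no value for single strata, single diets or differences between effects. No paired analysis was possible because the groups compared share no replicate numbers in the labels. Depth limits the 21 members with a median under 10 reads.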
